A study of Mus musculus with 12 samples.

Results

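The 8 transcription factors described here, Cebpa, Cebpb, Cebpd, Cebpe, Cebpg, Spi1, Gfi1 and Irf8, were chosen by symbol, and all 8 were found among the 56748 Ensembl genes counted in each library. They were measured by bulk RNA-seq in donor-derived Lin-Sca+Kit+ (LSK) BM cells, the compartment that holds stem cells and multipotent progenitors. CD45.2 BM from the SCLtTA/BCR-ABL (DTG) mouse, in which an Scl-driven tetracycline transactivator switches on human BCR::ABL1 once tetracycline (TET) is withdrawn, was given to irradiated CD45.1 B6.SJL recipients aged 8 to 12 weeks. All recipients had TET in their water for the first 2 weeks. In the CML group (CML 2wk in the labels, n = 6 libraries) TET was then removed for 2 weeks, and in the CTRL group (n = 6 libraries) it was continued. Both groups thus carry the same transgenes. The paper describes the donor cells as a frozen pool of BM from several DTG mice of both sexes. Whether the same pool served every library is not given. The labels give male for every CTRL library and female for every CML library, although the design text speaks of recipients of both sexes in the study, and TET itself was present in CTRL only, so that BCR::ABL1, TET and the labelled sex cannot be told apart. The transgene itself was not analysed here.

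These factors decide between myeloid fates. C/EBP proteins bind DNA as homodimers and heterodimers through a basic leucine zipper. C/EBPα, together with the ETS factor PU.1 (encoded by Spi1), sets up granulocyte and monocyte progenitors, C/EBPβ and C/EBPδ act in emergency granulopoiesis and inflammation, and C/EBPε drives late granulocyte maturation, while C/EBPγ lacks an activation domain and pairs with the other members. GFI1 is a zinc-finger repressor that favours granulocytes. IRF8 partners with PU.1 and favours monocytes and dendritic cells, and mice that lack it accumulate granulocytes.

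The members passed edgeR's filter on low counts in all 8 cases, and their counts per library lay between 118 (Cebpe) and 6340 (Irf8). Totals were 22804754 to 41832868 counts per CTRL library and 16150817 to 25070105 per CML library. CML libraries also had more mitochondrial counts (2.258% to 2.973%, against 0.816% to 1.288%). Levels are given as CPM, counts scaled to the library total with TMM factors. Of the sorting markers, Kit had 749 ± 45.5 CPM (SD, n = 6) in CTRL and 412 ± 71.1 CPM (SD, n = 6) in CML, and Ly6a, which encodes Sca-1, had 34.4 and 44.8 CPM. The summed level of 10 neutrophil markers was 2580 CPM in CTRL replicate 4 and 123 to 535 CPM in the other CTRL libraries, and the summed level of 12 stromal markers was 5710 CPM in CML replicate 2, 838 CPM in CML replicate 4 and at most 210 CPM in the other 10 libraries. Where leaving out these libraries changed a call or a value of a member, ratio or share markedly, both values are given. Fold changes of other named genes and calls on marker lists are given with all libraries only. In bulk RNA, fewer cells of a type and less RNA per cell cannot be told apart.

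Upstream sequences are shown for the 2 members whose groups did not overlap, Irf8 and Gfi1. RefSeq promoter entries (GRCm38.p6) matched 5 of the 8 members, and the 250 bases before each annotated start were searched on both strands for TTGCNNAA (C/EBP), GGAAGT (PU.1), AATCNNNGC (GFI1), TTCNNNGAA (STAT) and the ETS-IRF composite element (PU.1 with IRF). Capitals mark the matches, which do not overlap one another, and positions count back from the start.
Irf8, the more upstream of 2 starts, chr8:120736108-120736357, plus strand: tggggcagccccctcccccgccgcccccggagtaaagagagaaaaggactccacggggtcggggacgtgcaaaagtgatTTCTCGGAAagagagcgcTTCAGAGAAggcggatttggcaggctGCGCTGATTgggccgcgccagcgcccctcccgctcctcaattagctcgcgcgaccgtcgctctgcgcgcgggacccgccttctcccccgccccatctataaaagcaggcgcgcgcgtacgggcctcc
Gfi1, the more upstream of 2 starts, chr5:107725806-107726055, minus strand: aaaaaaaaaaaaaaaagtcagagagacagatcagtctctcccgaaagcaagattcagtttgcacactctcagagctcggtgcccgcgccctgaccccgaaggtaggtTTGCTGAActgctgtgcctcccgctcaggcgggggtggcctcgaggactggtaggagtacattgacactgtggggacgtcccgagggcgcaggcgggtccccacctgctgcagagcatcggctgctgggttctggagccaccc
The Irf8 window held 2 STAT-type matches, at -171 to -163 and at -153 to -145, and 1 GFI1-type match at -127 to -119. The Gfi1 window held 1 C/EBP-type match at -143 to -136. Among the same windows of 32851 annotated starts, 7.02% held the STAT-type letters, 8.87% the GFI1-type, 9.56% the C/EBP-type, 19.7% the PU.1-type and 2.30% the composite element. The other Irf8 and Gfi1 starts and the windows of Cebpa, Cebpb and Cebpg held no match to any of the 5, and a match is a description of the sequence only. The build in the submitters' processing notes is GRCm39, and the coordinates here belong to GRCm38.p6.

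With BCR::ABL1 switched on for 2 weeks, 5 members were higher in CML than in CTRL (Cebpa, Cebpb, Cebpd, Cebpe and Gfi1), 1 was lower (Irf8), and 2 were not called (Cebpg and Spi1). A gene was called at an adjusted p under 0.05 in the quasi-likelihood test of edgeR, with Benjamini-Hochberg adjustment across the 18438 genes that passed the filter. In the same test 59.5% of all genes were called, 30.6% higher and 29.0% lower, beside 75.0% of the members, 62.5% higher and 12.5% lower. The groups did not overlap for 2 of the 8 members, Gfi1 above and Irf8 below, beside 37.6% of all genes, 17.0% with CML above and 20.6% with CML below. The median log2 fold change was 0.60 over the members and 0.067 over all genes.

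**Figure D1:**
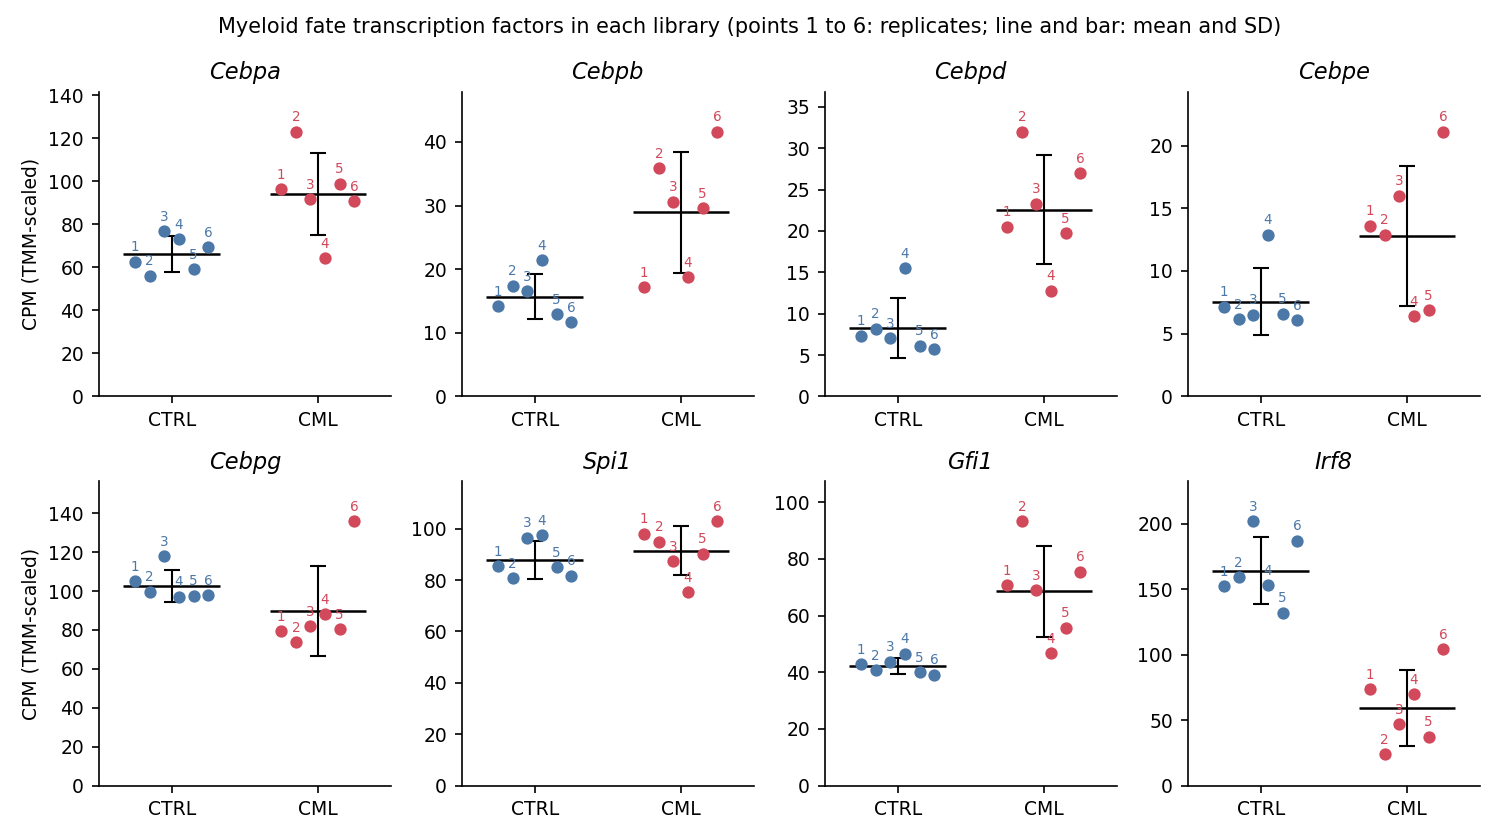
CPM of each member (y axis, from 0, TMM-scaled) in the 6 CTRL and 6 CML libraries, with points numbered by replicate and the line and bar giving mean and SD. The CML points of Gfi1 (46.8 to 93.4 CPM) lie above every CTRL point, those of Irf8 (24.2 to 104 CPM) lie below every CTRL point, and the groups overlap for the other 6 members.

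Among the granulocyte-monocyte initiators, Cebpa had 56.1 to 76.8 CPM in CTRL (median 65.9) and 64.1 to 123 CPM in CML (median 93.9). In 5 of 6 CML libraries it was above the highest CTRL library, and CML replicate 4 was the exception. The log2 fold change was 0.51 (standard error 0.125, edgeR adjusted p = 0.00274). Leaving out each library in turn gave 0.41 to 0.60.

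Spi1 had 80.7 to 97.4 CPM in CTRL (median 85.2) and 75.3 to 103 CPM in CML (median 92.5). The groups overlapped over most of their range, and within CML the coefficient of variation of Spi1 (10.6%) was the lowest of the 8 members, that of Irf8 (48.7%) the highest. The log2 fold change was 0.06 (standard error 0.0782, edgeR adjusted p = 0.526), with a 95% interval of -0.11 to 0.23, or 0.927-fold to 1.17-fold. Changes of Spi1 mRNA within these bounds are compatible with these libraries, so that the missing call does not show an unchanged level.

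Within a library, the ratio of Cebpa to Spi1 does not depend on how libraries are scaled to one another. On the log2 scale it was -0.41 ± 0.114 (SD, n = 6) in CTRL and 0.02 ± 0.222 (SD, n = 6) in CML, and every CML library was above every CTRL library. The difference of 0.43 had an exact two-sided permutation p of 0.00216, the smallest that 6 against 6 allow, and an adjusted p of 0.00361 over the 5 ratios examined.

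Both inflammatory members rose. Cebpd had 5.70 to 15.5 CPM in CTRL (median 7.18) and 12.8 to 32.0 CPM in CML (median 21.9), and 5 of 6 CML libraries were above the highest CTRL library. CML over CTRL gave 1.43 on the log2 scale (standard error 0.254, edgeR adjusted p = 0.000211), the largest increase among the 8. The overlap came from CTRL replicate 4, the library high in neutrophil markers, where Cebpd stood at 15.5 CPM and the next CTRL library at 8.21 CPM. Without that library the log2 fold change was 1.71 (edgeR adjusted p = 1.03e-05). Of the 3746 exon bases of Cebpd, 562 overlap Spidr on the opposite strand, and the use of strand in counting is not given in the sources used here. Spidr itself had a log2 fold change of -0.19 (edgeR adjusted p = 0.109).

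Cebpb had 11.7 to 21.4 CPM in CTRL (median 15.3) and 17.2 to 41.6 CPM in CML (median 30.1). The highest value was that of CML replicate 6, and CML replicates 1 and 4 lay within the CTRL range. The log2 fold change was 0.88 (standard error 0.21, edgeR adjusted p = 0.00215). The opposite-strand neighbour Tmem189 overlaps 312 of its 1504 exon bases and fell by 0.42 on the log2 scale (edgeR adjusted p = 0.0032). The summed level of 10 monocyte and macrophage markers was 397 to 492 CPM in CTRL and 385 to 897 CPM in CML, with its highest value also in CML replicate 6. Of these markers 4 rose, 1 fell and 5 were not called, beside 30.6% of all genes higher and 29.0% lower. The part of these markers in the Cebpb values was not tested.

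Cebpe, the factor of late granulocyte maturation, was the least stable call. It had 6.07 to 12.9 CPM in CTRL (median 6.55) and 6.40 to 21.1 CPM in CML (median 13.2). CML replicates 4 and 5, at 6.40 and 6.86 CPM, were within the CTRL range, and so the CML libraries fell into a lower pair and 4 values of 12.9 CPM and above. The log2 fold change was 0.75 (standard error 0.283, edgeR adjusted p = 0.0324), and the adjusted p rose above 0.05 when any of CTRL replicates 1, 2, 3, 5 and 6 or CML replicates 1, 3 and 6 was left out, with log2 fold changes of 0.54 to 0.73. CTRL replicate 4 was again the highest CTRL library, at 12.9 CPM where the next had 7.15 CPM, and without it the log2 fold change was 0.97 (edgeR adjusted p = 0.00736). Of the 10 neutrophil markers, 1 rose, 5 fell and 4 were not called, beside 30.6% of all genes higher and 29.0% lower. The sum over the list was 106 to 464 CPM in CML. In CTRL it was 2580 CPM in replicate 4 and 123 to 535 CPM in the other libraries, so that these overlapped CML. The part of these markers in the Cebpe values was not tested.

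Cebpg, the member without an activation domain, had 97.0 to 118 CPM in CTRL (median 98.8) and 73.6 to 136 CPM in CML (median 81.1). The 5 CML libraries other than replicate 6 were all below the lowest CTRL library, at 73.6 to 88.2 CPM, while replicate 6 at 136 CPM was above the highest. With all libraries the log2 fold change was -0.19 (standard error 0.126, 95% interval -0.46 to 0.08, edgeR adjusted p = 0.213). Without CML replicate 6 it was -0.36 (standard error 0.0631, edgeR adjusted p = 0.000286). The call on Cebpg thus rested on 1 library. In that library Atf5, a C/EBP-related zipper factor of the stress response, had 41.1 CPM against 7.58 to 21.2 CPM in the other CML libraries, and Mthfd2, a mitochondrial folate enzyme, had 134 CPM against 36.0 to 44.0 CPM.

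Gfi1 and Irf8 changed in opposite directions. Gfi1 had 39.1 to 46.6 CPM in CTRL (median 41.8) and 46.8 to 93.4 CPM in CML (median 69.8). All 6 CML libraries were above all 6 CTRL libraries, the lowest of them, CML replicate 4, by a narrow margin. The log2 fold change was 0.70 (standard error 0.129, edgeR adjusted p = 0.000296). The noncoding transcript A430072P03Rik on the opposite strand, which shares 101 exon bases with Gfi1, rose as well, from 2.74 to 7.04 CPM on average (log2 fold change 1.358, edgeR adjusted p = 3.66e-06).

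Irf8 had 132 to 202 CPM in CTRL (median 156) and 24.2 to 104 CPM in CML (median 58.4). Every CML library was below every CTRL library, with CML replicate 2 lowest and CML replicate 6 highest. The log2 fold change was -1.47 (standard error 0.267, edgeR adjusted p = 0.000259), a 2.77-fold lower level. In size this was close to the increase of Cebpd (1.43), and the order of these turned with upper-quartile factors (-1.4 and 1.5) or without CTRL replicate 4 (-1.50 and 1.71). The order also turned without CML replicate 3 (-1.41 and 1.42), 4 (-1.53 and 1.55) or 5 (-1.37 and 1.47). It did so too without CML replicates 2 and 4 together (-1.34 and 1.42). Among CML libraries the highest value was 4.30 times the lowest, the widest spread of the list, against 1.53 times in CTRL. Without CML replicates 2 and 4, which were high in stromal markers, the log2 fold change was -1.34 (edgeR adjusted p = 0.000159).

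The log2 ratio of Gfi1 to Irf8 was -1.95 ± 0.238 (SD, n = 6) in CTRL and 0.33 ± 0.93 (SD, n = 6) in CML. It was below 0 in every CTRL library, at -2.26 to -1.72, and at -0.58 to 1.95 in CML, so that the groups did not overlap. The difference of 2.28 had an exact two-sided permutation p of 0.00216 (adjusted p = 0.00361). Every CML library was higher in Gfi1 and lower in Irf8 than every CTRL library, so this p could only be the smallest possible. It therefore adds nothing to the fold changes of Gfi1 and Irf8, and neither do the p-values below with libraries left out. Of the 5 ratios, Gfi1 to Irf8 had the largest difference. The highest CML value was that of replicate 2, high in stromal markers, and the next was 0.57. Without that library the difference was 1.95 (exact permutation, adjusted p = 0.00722). Without CML replicates 2 and 4 it was 2.10 (adjusted p = 0.0159).

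**Figure D2:**
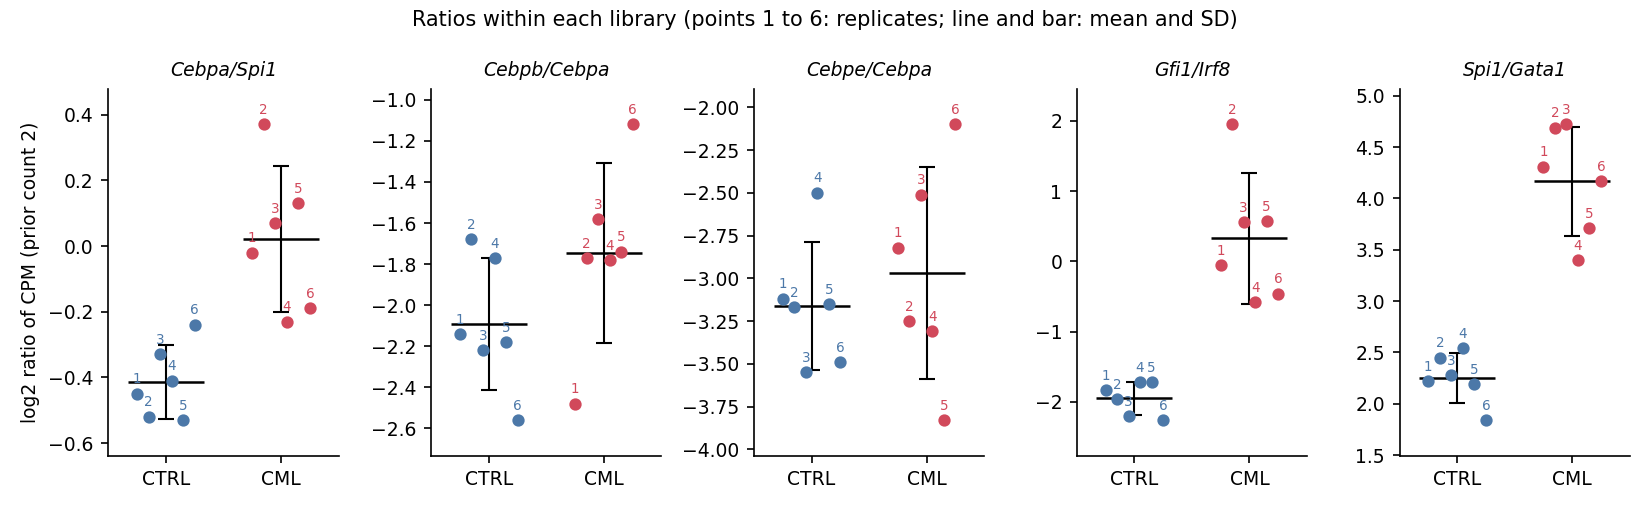
Log2 ratios of CPM (y axis, prior count 2) of 5 gene pairs in each CTRL and CML library, with points numbered by replicate and the line and bar giving mean and SD. The groups do not overlap for Cebpa/Spi1, Gfi1/Irf8 (-2.26 to -1.72 against -0.58 to 1.95) and Spi1/Gata1, and they overlap for Cebpb/Cebpa and Cebpe/Cebpa.

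PU.1 and the erythroid-megakaryocytic factor GATA1 inhibit each other, and their ratio was examined for that reason. Gata1 had 14.7 to 22.7 CPM in CTRL and 3.25 to 7.05 CPM in CML (log2 fold change -1.82, standard error 0.189, edgeR adjusted p = 1.47e-06). The log2 ratio of Spi1 to Gata1 was 2.25 ± 0.243 (SD, n = 6) in CTRL and 4.17 ± 0.528 (SD, n = 6) in CML, a difference of 1.91 (exact two-sided permutation p = 0.00216, adjusted p = 0.00361). Spi1 itself was not called. The ratios of Cebpb to Cebpa (difference 0.35, exact permutation p = 0.141, adjusted p = 0.176) and of Cebpe to Cebpa (difference 0.19, exact permutation p = 0.539, adjusted p = 0.539) overlapped between the groups. Without CML replicate 1, Cebpb/Cebpa differed by 0.50 (exact permutation p adjusted over the 5 ratios 0.0487).

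**Figure D3:**
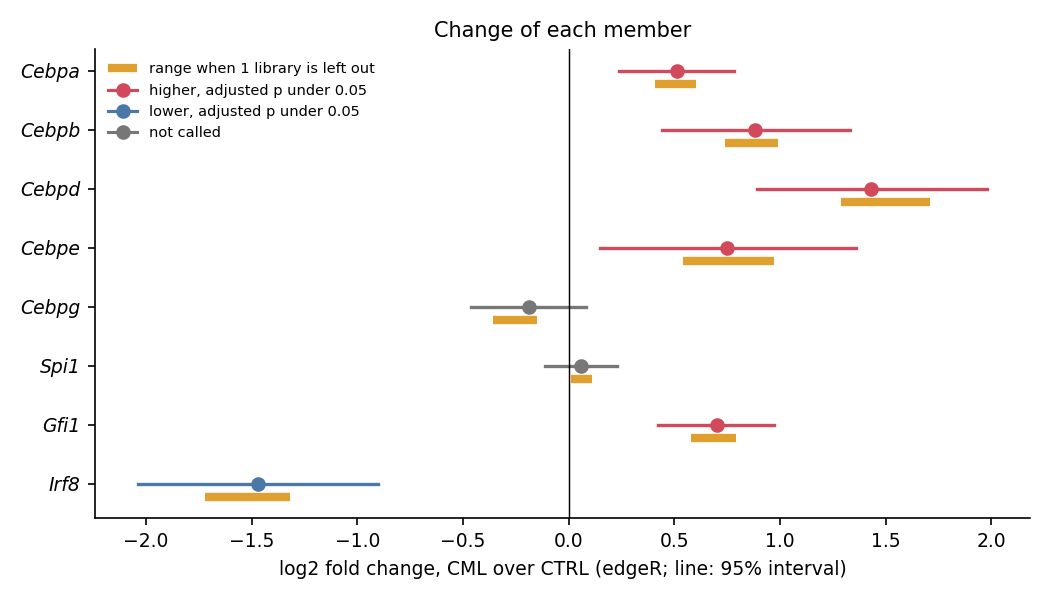
Log2 fold change of each member, CML over CTRL (x axis), with its 95% interval from edgeR, and below each the range obtained when 1 library is left out at a time. Irf8 (-1.47) and Cebpd (1.43) lie farthest from 0, and the intervals of Spi1 (-0.11 to 0.23) and Cebpg (-0.46 to 0.08) include 0.

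Levels were compared between genes as CPM per kilobase of exon. In CTRL the order was Spi1 (32.6 ± 2.73, SD, n = 6), Cebpa (25.1 ± 3.12), Irf8 (23.3 ± 3.63), Cebpg (18.2 ± 1.43), Gfi1 (13.2 ± 0.871), Cebpb (10.4 ± 2.33), Cebpe (6.09 ± 2.12) and Cebpd (2.22 ± 0.974). Neighbours whose ranges of mean ± SD overlapped were Cebpa and Irf8, Irf8 and Cebpg, Gfi1 and Cebpb, and Cebpb and Cebpe. In CML Cebpa (35.7 ± 7.14, SD, n = 6) and Spi1 (34.0 ± 3.61) led, and their ranges overlapped. They were followed by Gfi1 (21.5 ± 5.07), Cebpb (19.2 ± 6.35), Cebpg (16.0 ± 4.11), Cebpe (10.3 ± 4.49), Irf8 (8.40 ± 4.09) and Cebpd (6.02 ± 1.77), each overlapping the one before it from Cebpb on. Irf8 stood in place 3 of 8 in CTRL and in place 7 in CML.

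Because C/EBP proteins act as dimers, the make-up of their transcripts was examined as the share of each member in the summed CPM per kilobase of the 5 genes. Cebpa held 40.5% ± 3.19 (SD, n = 6) in CTRL and 41.3% ± 5.9 (SD, n = 6) in CML, a difference of 0.789 percentage points (exact two-sided permutation p = 0.792) that became 5.12 points without division by length (adjusted exact permutation p = 0.0974). Cebpg held 29.6% ± 3.07 in CTRL and 18.7% ± 4.52 in CML (exact permutation p = 0.00433, adjusted p = 0.0108 over the 5 shares). Cebpd held 3.51% ± 1.12 in CTRL and 6.81% ± 0.911 in CML (exact permutation p = 0.00433, adjusted p = 0.0108). For both, the groups overlapped by a single pair of libraries, with CTRL replicate 4 and CML replicate 4 crossing over. The shares of Cebpb, 16.7% ± 2.5 and 21.7% ± 3.83 (exact permutation p = 0.0325, adjusted p = 0.0541), and of Cebpe, 9.68% ± 2.27 and 11.5% ± 3.58 (exact permutation p = 0.34, adjusted p = 0.425), did not pass. Without CML replicate 1 the Cebpb share differed by 6.42 percentage points (adjusted exact permutation p = 0.0144). Without division by length it differed by 3.64 points (adjusted exact permutation p = 0.0144), that of Cebpd by 4.86 and that of Cebpg by -14.9 (both adjusted exact permutation p = 0.0108). Per library, Cebpg held 23.4% to 31.4% in CTRL and 12.8% to 25.7% in CML. The shares of a library add up to the whole, so that a share can fall because others rise, and the 5 tests are tied to one another. The level of Cebpg itself was not called (log2 fold change -0.19, edgeR adjusted p = 0.213).

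**Figure D4:**
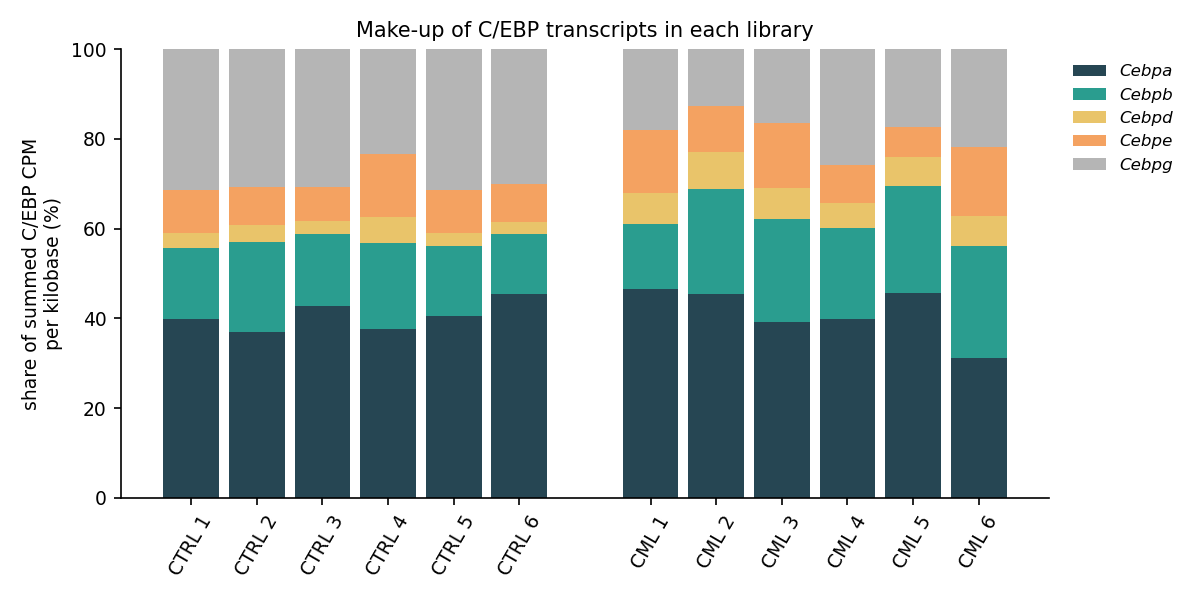
Share of each of the 5 C/EBP genes in their summed CPM per kilobase (y axis, percent, bars add to 100) in each CTRL and CML library. The Cebpg part shrinks from a mean of 29.6% in CTRL to 18.7% in CML and the Cebpd part grows from 3.51% to 6.81%, while the mean Cebpa part is 40.5% and 41.3%.

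Whether members varied together within a group was examined for the 28 pairs in each group, 56 relations over 6 libraries each. None had an adjusted p under 0.05 by Pearson's r with an exact permutation test (lowest adjusted p = 0.156 in CTRL and 0.194 in CML), while 5 pairs in CTRL and 1 in CML had an unadjusted p under 0.05. A single pair could not have passed, since the smallest exact permutation p with 6 libraries, 0.00139, becomes 0.0778 when adjusted for 56 relations. The closest in CTRL was Cebpb with Cebpd (r = 0.91, exact permutation p = 0.00278, adjusted p = 0.156, Spearman's rho = 0.943, exact permutation p = 0.0167, n = 6), and r was 0.823 without the 2 libraries farthest from the median of Cebpb. In CML it was Cebpd with Gfi1 (r = 0.953, exact permutation p = 0.00694, adjusted p = 0.194, Spearman's rho = 0.943, exact permutation p = 0.0167, n = 6), and r was 0.755 without the 2 farthest libraries.

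Among the 15850 other genes with a mean of at least 1 CPM, the 2 closest to each member were taken by the smaller of Pearson's r in CTRL and in CML. These are the highest of many values over 6 libraries per group, so that they describe likeness only and carry no p. For Irf8 they were Gbp5, an interferon-inducible GTPase (r = 0.914 in CTRL and 0.939 in CML, Spearman's rho 0.829 and 0.943), and Strip2 (0.897 and 0.97, rho 0.943 and 0.943), and both fell in CML (log2 fold change -1.07 and -1.94, edgeR adjusted p = 2.75e-05 and 0.0145). For Gfi1 they were Rex1bd (r = 0.928 and 0.965, rho 0.886 and 0.943) and Dirc2 (r = 0.92 and 0.922, rho 1.0 and 0.829), and for Cebpd Smad7, an inhibitor of TGF-beta signalling (r = 0.939 and 0.908, rho 0.6 and 0.714), and Ltb4r1, a leukotriene B4 receptor (r = 0.906 and 0.924, rho 0.6 and 0.943). Those of Cebpg were Hikeshi (r = 0.927 and 0.914, rho 0.6 and 0.943) and Mthfd2 (r = 0.91 and 0.923, rho 0.486 and 0.143). The low rho of Mthfd2 in CML goes with the single high library, CML replicate 6. For Spi1, Med29 and Hes6 were closest, for Cebpa Gm3052 and Fut4, for Cebpb H3f3a-ps1 and Cox11, and for Cebpe Gm42895, with r of 0.871 to 0.963.

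Of 13 genes that control or pair with C/EBP proteins 5 rose, 5 fell and 3 were not called, beside 30.6% of all genes higher and 29.0% lower, with a median log2 fold change of 0.26. Batf, an AP-1-family zipper factor, rose from 13.3 ± 0.718 to 27.0 ± 6.23 CPM (log2 fold change 1.02, edgeR adjusted p = 1.36e-05, n = 6 per group), whereas its relatives Batf2 (log2 fold change -1.14, adjusted p = 0.00026) and Batf3, a factor of cross-presenting dendritic cells (-1.67, adjusted p = 0.0221), fell. Calreticulin (Calr), which has been described to bind Cebpa mRNA and hold back its translation, rose from 964 ± 100 to 1850 ± 405 CPM (log2 fold change 0.94, adjusted p = 2.97e-05). Pcbp2, encoding hnRNP E2, to which the same role is ascribed in BCR::ABL1+ cells, fell by 0.22 on the log2 scale (adjusted p = 0.0112). Protein was not measured here.

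Upstream regulators and enhancer partners of the members were mostly lower. Of 27 genes 2 rose, 19 fell and 6 were not called, beside 30.6% of all genes higher and 29.0% lower. The median log2 fold change was -0.72. Erg, an ETS factor of stem cells, fell from 200.4 ± 13 to 95.2 ± 17.3 CPM (log2 fold change -1.07, edgeR adjusted p = 6.85e-07, n = 6 per group). Etv6 (log2 fold change -0.81, adjusted p = 9.22e-07) and Myb (-0.29, adjusted p = 0.00705), the most abundant of the list, also fell. Klf4, a monocyte factor, fell by 1.72 on the log2 scale (adjusted p = 0.000775). The immediate early genes Jun (log2 fold change -1.31, adjusted p = 0.0065) and Nr4a1 (-1.34, adjusted p = 0.0077) fell, and both were highest in CTRL replicate 2, at 257 and 23.2 CPM.

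Of the paralog and corepressors of GFI1, 1 of 11 rose, 8 fell and 2 were not called, beside 30.6% of all genes higher and 29.0% lower. Gfi1b, the erythroid and megakaryocytic paralog, fell from 28.6 ± 1.88 to 7.43 ± 2.04 CPM (log2 fold change -1.94, edgeR adjusted p = 2.5e-07, n = 6 per group), opposite to Gfi1. The corepressor genes Rcor1 (log2 fold change -0.73, adjusted p = 2.53e-07) and Rcor2 (-1.26, adjusted p = 2.09e-05), the histone methyltransferase gene Ehmt2 (-0.82, adjusted p = 8.32e-07) and the deacetylase gene Hdac2 (-0.16, adjusted p = 0.0242) fell. Of 10 genes known to be repressed by GFI1, among them Irf8 and Spi1 themselves, 2 rose, 4 fell and 4 were not called. The share called was thus near that of all genes (59.5%, with 30.6% higher and 29.0% lower). Irf8, reported above, was among the 4 that fell, and Spi1 was among those not called. Id1, an inhibitor of helix-loop-helix factors, rose from 1.29 ± 0.436 to 10.1 ± 3.65 CPM (log2 fold change 2.95, adjusted p = 4.82e-07), while Meis1, a partner of HOX proteins, fell (-0.69, adjusted p = 2.65e-06).

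**Figure D5:**
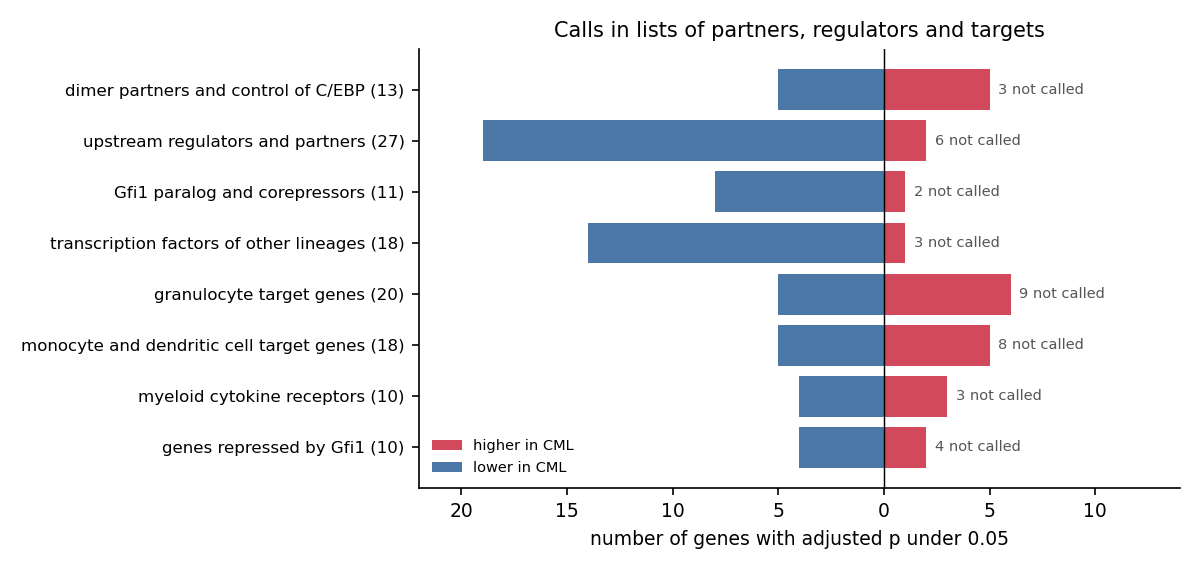
Number of genes called higher (right) or lower (left) in CML at an edgeR adjusted p under 0.05 (x axis) in 8 lists of partners, regulators and targets, with the number tested in brackets and those not called beside each bar. Upstream regulators (19 lower, 2 higher) and factors of other lineages (14 lower, 1 higher) lie mostly to the left, and granulocyte targets (6 higher, 5 lower) on both sides. Of all genes tested, 30.6% were called higher and 29.0% lower.

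Transcription factors of the other lineages fell in 14 of 18 cases, 1 rose and 3 were not called, beside 29.0% of all genes lower and 30.6% higher. Their median log2 fold change was -0.89. These included the erythroid factor Klf1 (-2.35, edgeR adjusted p = 1.08e-06), the GATA1 cofactor Zfpm1 (-1.78, adjusted p = 9.68e-08), the B cell factor Pax5 (-2.07, adjusted p = 0.0225) and the abundant Lmo2 (-0.77, adjusted p = 8.68e-07) and Bcl11a (-0.41, adjusted p = 8.34e-05). Of the markers of these lineages that were tested, 7 of 10 erythroid, 7 of 8 megakaryocytic and 3 of 10 B cell genes fell, beside 29.0% of all genes. Their sums were 393 to 482 CPM in CTRL and 141 to 336 CPM in CML (at most 191 without CML replicate 2) for megakaryocytic markers and 441 to 798 against 29.3 to 374 CPM for B cell markers, while the erythroid sum, led by the transferrin receptor gene Tfrc (1.65, adjusted p = 3.1e-06), was 225 to 328 against 291 to 674 CPM. The B cell count was thus near the share of all genes. The most abundant B cell markers, Ighm (-1.38, adjusted p = 0.0704) and Cd79b (0.21, adjusted p = 0.185), were not called. Of 8 T and NK cell markers 3 rose and 2 fell, with sums of 85.9 to 114 and 109 to 215 CPM. Of 10 stromal markers tested 5 rose and 0 fell. Among all genes, 30.6% were higher and 29.0% lower. The stromal sum was raised in CML replicates 2 and 4, and at 106 to 152 CPM in the other 4 CML libraries it was below the CTRL libraries (176 to 210 CPM). Of 10 LSK and stem cell markers 8 fell and 1 rose, beside 29.0% of all genes lower and 30.6% higher. Their sums were 2820 to 3200 CPM in CTRL and 1740 to 2240 CPM in CML. No gene of the marker lists was at 0 in all 12 libraries. Mast cell and basophil markers rose in 7 of 10 cases, fell in 1 and were not called in 2, beside 30.6% of all genes higher and 29.0% lower. The 1 that fell was Gata2, from 220 ± 15.3 to 103 ± 28.9 CPM (log2 fold change -1.1, edgeR adjusted p = 1.64e-05). Sums over the list were 317 to 430 CPM in CTRL and 497 to 2680 CPM in CML, or 497 to 1140 CPM without CML replicate 2. The part of these markers in the results on the members was not tested.

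Of 20 known targets of the members in granulocytes 6 rose, 5 fell and 9 were not called, near the shares of all genes called higher (30.6%) and lower (29.0%), with a median log2 fold change of -0.62. The primary granule gene Ctsg rose from 186 ± 28.7 to 1390 ± 466 CPM (log2 fold change 2.90, edgeR adjusted p = 8.4e-08, n = 6 per group), Ms4a3, a marker of granulocyte-monocyte progenitors, from 50.0 ± 6.22 to 493 ± 157 CPM (3.30, adjusted p = 2.77e-08), and Mpo from 1690 ± 205 to 2690 ± 1070 CPM (0.67, adjusted p = 0.0195). The secondary granule genes Camp (-2.87, adjusted p = 0.00721) and Ngp (-2.94, adjusted p = 0.0162) were lower in CML, and both had by far their highest level in CTRL replicate 4, at 171 and 528 CPM. Without that library 1 gene of the list was called lower, where 5 were called with it.

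Of 18 targets in monocytes and dendritic cells 5 rose, 5 fell and 8 were not called, also near the shares of all genes (30.6% higher and 29.0% lower), with a median log2 fold change of 0.05. The monocyte receptor genes Ccr2 (from 74.6 ± 9.13 to 272 ± 79.6 CPM, log2 fold change 1.86, edgeR adjusted p = 3.28e-07, n = 6 per group), Fcgr3 (2.08, adjusted p = 2.4e-06) and Cd14 (2.7, adjusted p = 0.000399) rose, while Siglech, a marker of plasmacytoid dendritic cells, fell by 3.05 on the log2 scale (adjusted p = 0.000641). Cd14 and Siglech were at low levels. Cd14 had means of 0.455 CPM in CTRL and 2.92 CPM in CML. It was highest in CML replicates 2 and 4 (6.42 and 4.29 CPM), and CML replicate 5 (0.45 CPM) lay within the CTRL range. Siglech had means of 3.43 and 0.425 CPM. Cst3, the most abundant of the list, had 207 ± 35.8 and 202 ± 80.7 CPM (adjusted p = 0.884). In the separate list of 10 monocyte and macrophage markers, 4 rose and the 1 that fell was Mpeg1. It went from 235 ± 33.6 to 95.8 ± 66.2 CPM (log2 fold change -1.3, edgeR adjusted p = 0.00443). Of 10 myeloid cytokine receptors 3 rose, 4 fell and 3 were not called, again close to all genes. Csf2rb2, an IL-3 receptor beta chain (1.98, adjusted p = 8.18e-05), Csf2rb, the beta chain shared with the GM-CSF receptor (1.08, adjusted p = 6.74e-06) and Ifngr1 (1.16, adjusted p = 2.55e-05) rose, and Csf2ra, the alpha chain of the GM-CSF receptor (-0.78, adjusted p = 0.000335), and Flt3 (-0.73, adjusted p = 0.00111) fell.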

How the data were processed

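Bulk RNA-seq of sorted donor LSK cells was available as 12 libraries, grouped by sample title into CTRL and CML 2wk. The authors deposited raw counts per Ensembl gene without normalization. The submitters' processing notes list FastQC 0.11.9, fastp 0.23.2, STAR 2.7.10a, featureCounts 2.0.1, DESeq2 1.36.0 and GRCm39 (mm39), while the paper's methods name Trim Galore!, HISAT2, featureCounts and a human genome for bulk RNA-seq. Annotation release, strand setting and treatment of multi-mapped reads are not given in the sources used here. Symbols were paired by Ensembl identifier (52073 of 56748 matched, 0 entries named no gene), and exon lengths come from GENCODE M21 (GRCm38).

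Counts were tested with edgeR 4.0.16 in R 4.3.3 (filterByExpr, TMM factors, quasi-likelihood test, no covariate, all 12 libraries), and 95% intervals use its standard errors. CPM are edgeR's counts per TMM-scaled library total, log2 CPM use a prior count of 2, and exact permutation tests used scipy 1.17.1. Depth was 16150817 to 41832868 counts per library. A count of 0 allows up to 3 counts, and such limits cover counting error only. No library pair was within sampling noise (lowest chi-square per degree of freedom 4.072). On simulated counts for 18438 genes of this comparison, edgeR called 32 of 67 genes changed 1.5-fold, 41 of 67 changed 2-fold, 58 of 66 changed 4-fold and 7 of 17984 unchanged genes. Far fewer genes were changed there than were called in the data (59.5%). The adjustment was therefore stricter, and these rates do not give the sensitivity of the real comparison.

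The named genes are the 8 members, Gata1, the 4 largest called changes (mean of at least 1 CPM) and 2 most abundant genes of each pathway list, up to 2 of the most abundant of each marker list, and the 2 genes most like each member. Some genes that this rule names are not reported here. Ly6a, Spidr, Tmem189 and A430072P03Rik were named after their values were seen, and members and lists were chosen with earlier results of these data known. The labels do not say whether each library is 1 recipient, so that p-values measure the spread between these libraries. Alternatives were DESeq2 1.42.0, RLE and upper-quartile factors, no filter, a replicate block, prior counts, lengths and leaving out libraries.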

Additional observations from a re-analysis of the deposited data

Results flagged for a closer look

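Dixon's criterion singled out a library in 5 of the 36 groups of 6 values examined (CPM, ratios and shares), and about 1.8 would be singled out by chance. In CTRL replicate 4, Cebpd had 15.5 CPM (next 8.21) and Cebpe 12.9 CPM (next 7.15), the Cebpe share of C/EBP transcripts was 14.1% (next 9.68%) and the Cebpg share 23.4% (next 30.1%). The summed neutrophil markers of that library were 2580 CPM, against at most 535 CPM in any other, and their part in these values was not tested. In CML replicate 6, Cebpg had 136 CPM (next 88.2), along with the Atf5 and Mthfd2 values given above.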

How the results depend on the processing

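DESeq2, RLE and upper-quartile factors changed no call on a member, and of the recomputed log2 fold changes of members 138 kept direction and side of the threshold, 11 lost and 2 gained a call and 1 changed sign. Cebpe lost its call without a filter (0.68), with the replicate block (0.71), without replicate 6 of both groups (0.51) and in 8 of 12 omissions of 1 library (0.54 to 0.73 in these, 0.54 to 0.97 over all 12). Cebpg passed without replicate 6 of both groups (-0.35) and without CML replicate 6 (range over single omissions -0.36 to -0.15), which gave 2 members lower in both settings (range 1 to 2). Replicate 6 of each group has file numbers apart from the other 5. Spi1 turned to -0.01 without a filter, which moved the median of all genes from 0.067 to -0.008. GFI1 corepressors called higher became 0 without a filter and without replicate 6 of both groups. Granulocyte targets called lower became 2 with the block, 3 without CML replicates 2 and 4, and 1 to 7 over single omissions. Among ratios, Cebpb/Cebpa ranged from 0.22 to 0.50 and passed without CML replicate 1. Shares of Cebpa ranged from -0.266 to 2.82 and of Cebpb from 4.31 to 6.42 percentage points, and by CPM without length the differences were 5.12 for Cebpa, which did not pass, 3.64 for Cebpb, which did, and -14.9 for Cebpg. With sign flips within pairs (replicate block), Cebpa/Spi1 (0.43), Gfi1/Irf8 (2.28) and Spi1/Gata1 (1.91) had an adjusted p of 0.0521, the lowest possible there for 3 of 5 ratios, and the shares of Cebpd (3.30) and Cebpg (-10.9) 0.156. The labels do not tie numbers to a shared source: same-numbered libraries correlated at -0.125 to 0.068, and 1 of 6 CTRL libraries correlated best with its own number. Members had at least 118 counts per library, and what depth limits was not compared between them.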
